A study of Mus musculus with 21 samples.

Results

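The 10 claudins Cldn1, Cldn2, Cldn3, Cldn4, Cldn5, Cldn7, Cldn8, Cldn12, Cldn15 and Cldn23 were read in mouse colon and ileum RNA-seq. They were chosen by gene symbol, and all 10 were found among the 21441 genes that each of the 6 deposited tables lists. The study asked how much the distal gut, through the vitamin D receptor (VDR), adds to calcium balance and bone mineral. KO mice carried Villin-CreERT2 and VDR f/f, a floxed receptor gene with an inducible Cre recombinase that the Villin promoter directs to gut epithelium. Uninjected and treated mice were CDX2-VDR transgenics: they had no mouse receptor of their own and carried human VDR in the distal intestine. All mice were on C57BL6J. Treated mice had received 3 injections of 1,25D3, the hormone form of vitamin D, at 1 ng per g of body weight each, timed 48, 24 and 6 h ahead of tissue collection. KO mice were male and 9 or 11 weeks old, treated mice were male and 9 weeks old, and uninjected mice were 9 or 10 weeks old, with 5 of their 7 samples labelled female. By the sample labels and the tables' column names, colon had 4 KO, 4 uninjected and 3 treated libraries; the series' own design note swaps the last counts, to 3 uninjected and 4 treated, and the labels were followed here. Ileum had 4 KO, 3 uninjected and 3 treated libraries. Libraries are named by group and by the number in the table's column name.

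Claudins are membrane proteins that polymerise into tight junction strands between neighbouring epithelial cells. Their outer loops decide which ions can pass between the cells, on the paracellular route, which works beside the transcellular route of calcium through channel, binding protein and pump. Claudin-2 and claudin-15 form cation pores, and claudin-2 also passes water; claudin-2 and claudin-12 have been linked to vitamin D dependent paracellular calcium passage. Claudin-3, claudin-4, claudin-7 and claudin-8 are counted among the claudins of tighter epithelia, claudin-8 being typical of the distal colon. Claudin-5 is best known from endothelium.

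The first outer loop holds the claudin signature, and the stretch of coding sequence that encodes it shows how the members differ where the pore is lined. The stretches below are from the GENCODE transcripts of mm9, 5′ to 3′, with the signature, from its first codon to its last cysteine codon, in capitals.
Cldn2: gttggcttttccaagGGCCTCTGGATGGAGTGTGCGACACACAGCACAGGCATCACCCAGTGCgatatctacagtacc
Cldn15: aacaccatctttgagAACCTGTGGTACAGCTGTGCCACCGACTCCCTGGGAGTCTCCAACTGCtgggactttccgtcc
Cldn12: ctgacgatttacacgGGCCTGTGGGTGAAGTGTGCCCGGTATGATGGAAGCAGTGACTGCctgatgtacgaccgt
Cldn8: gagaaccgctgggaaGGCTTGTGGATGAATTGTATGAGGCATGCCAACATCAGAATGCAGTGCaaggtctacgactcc
Cldn3: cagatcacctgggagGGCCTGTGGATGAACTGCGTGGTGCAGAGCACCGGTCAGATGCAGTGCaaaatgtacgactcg
Cldn4: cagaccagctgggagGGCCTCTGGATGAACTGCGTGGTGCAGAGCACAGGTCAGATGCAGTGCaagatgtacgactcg
Cldn7: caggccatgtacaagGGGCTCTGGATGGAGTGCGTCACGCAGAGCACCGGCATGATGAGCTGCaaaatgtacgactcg
Cldn3 and Cldn4 differed at 5 of the 78 bases. Over the 36 pairs of members with stretches of that length, the median identity was 55.8%, and Cldn15 and Cldn23 were least alike at 35.9%. Cldn4 (5:135420996-135422804) and Cldn3 (5:135462084-135463342) lie 39.3 kb apart on chromosome 5 of mm9. The genes the results turn on most, Cldn2 and Cldn8, lie at X:136335367-136345925 and 16:88561073-88563428.

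Library composition was read before the claudins. The deletion removes an unstated part of Vdr, so that the gene-level value cannot check it, and Vdr stood at 19.3 to 23.5 FPKM (fragments per kilobase of transcript scaled to library size, a level that allows for length and depth) in the KO libraries. The transgenic libraries, from mice without a mouse receptor, also held Vdr. In colon it stood at 12.7 to 34.0 FPKM in uninjected and 19.5 to 37.7 FPKM in treated libraries. In ileum it stood at 22.1 to 24.9 FPKM in uninjected and 12.3 to 21.2 FPKM in treated libraries. The source of these values was not tested. Comparisons of a tissue share libraries: KO, uninjected and treated groups each enter a pair of them. For the VDR targets, KO libraries lay apart from the transgenic ones for Trpv6 in colon and S100g in both tissues: Trpv6 reached at most 0.70 FPKM in KO colon and at least 75.3 FPKM in the other colon libraries, and S100g at most 30.2 FPKM in KO ileum and at least 389 FPKM in the other ileum libraries. Ileal Trpv6 did not part them, with Ileum uninjected 4 at 0.11 FPKM inside the KO range of 0.10 to 0.16 FPKM, and neither gene parted uninjected from treated libraries in colon. The tissue is labelled Intestinal Epithelium, and all 8 epithelial markers were present, but the 6 smooth muscle markers also summed to between 695 and 7865 FPKM in colon. The 12 pancreatic acinar markers summed to 38990 FPKM in Colon KO 2, 125100 FPKM in Colon uninjected 3 and 21760 FPKM in Colon treated 4, against at most 940 FPKM in the other colon libraries. By label Colon uninjected 3 is female, yet it showed 12.1 FPKM of Ddx3y, a gene of the Y chromosome, where the other female-labelled colon libraries held 0.098 and 0.21 FPKM. Xist was low in nearly all libraries, reaching 5.91 FPKM in Colon uninjected 2 alone. Ileum treated 1, labelled male, held Ddx3y at 1.61 FPKM, against 10.5 and 14.1 FPKM in its group. Ileum uninjected 3, whose column is tied to no single sample, held 2.32 FPKM, against 0.035 and 8.98 FPKM in its group. Colon uninjected 3 also had the highest S100g in colon, 27260 FPKM, and the colon differences of Cldn2 and Cldn8 are given without it as well. Libraries also differed in their slope on GC content (the change of log2 level per 10% of transcript GC), most in Colon uninjected 1 at 0.87, Ileum uninjected 3 at 1.05 and Ileum treated 1 at 1.01. Reads recovered from the whole-number steps of the values came to 8.51 M to 34.8 M in colon and 13.0 M to 42.3 M in ileum, over the genes that could be resolved.

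Levels of KO and uninjected libraries are on the scale of the table these groups share and treated levels on that of the table with uninjected libraries, unless stated. In both tissues Cldn7 and Cldn3 were the most abundant claudins and Cldn1 the least. In KO colon the mean levels ran from Cldn7 at 763 ± 157 FPKM (SD, n = 4) and Cldn3 at 565 ± 140 FPKM to Cldn15 at 106 ± 20.0 FPKM and Cldn2 at 75.7 ± 13.9 FPKM. Below these came Cldn4 at 60.8 ± 28.3 FPKM, Cldn23 at 42.7 ± 11.5 FPKM and Cldn8 at 38.5 ± 9.64 FPKM. Cldn12 stood at 19.6 ± 1.27 FPKM, Cldn5 at 6.83 ± 0.93 FPKM and Cldn1 at 0.30 ± 0.22 FPKM. Neighbours from Cldn15 down to Cldn8 overlapped in range, as did Cldn7 with Cldn3. Gaps between ranges lay below Cldn3, Cldn8, Cldn12 and Cldn5. In KO ileum the order was Cldn7 at 1228 ± 314 FPKM, Cldn3 at 536 ± 139 FPKM, Cldn15 at 204 ± 42.1 FPKM, Cldn2 at 94.4 ± 9.05 FPKM and Cldn4 at 89.5 ± 51.9 FPKM (n = 4). It went on with Cldn23 at 24.1 ± 4.44 FPKM, Cldn12 at 10.6 ± 0.74 FPKM, Cldn5 at 4.52 ± 1.09 FPKM, Cldn8 at 4.04 ± 1.03 FPKM and Cldn1 at 0.10 ± 0.083 FPKM. Only Cldn2 with Cldn4 and Cldn5 with Cldn8 among these neighbours overlapped.

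**Figure D1:**
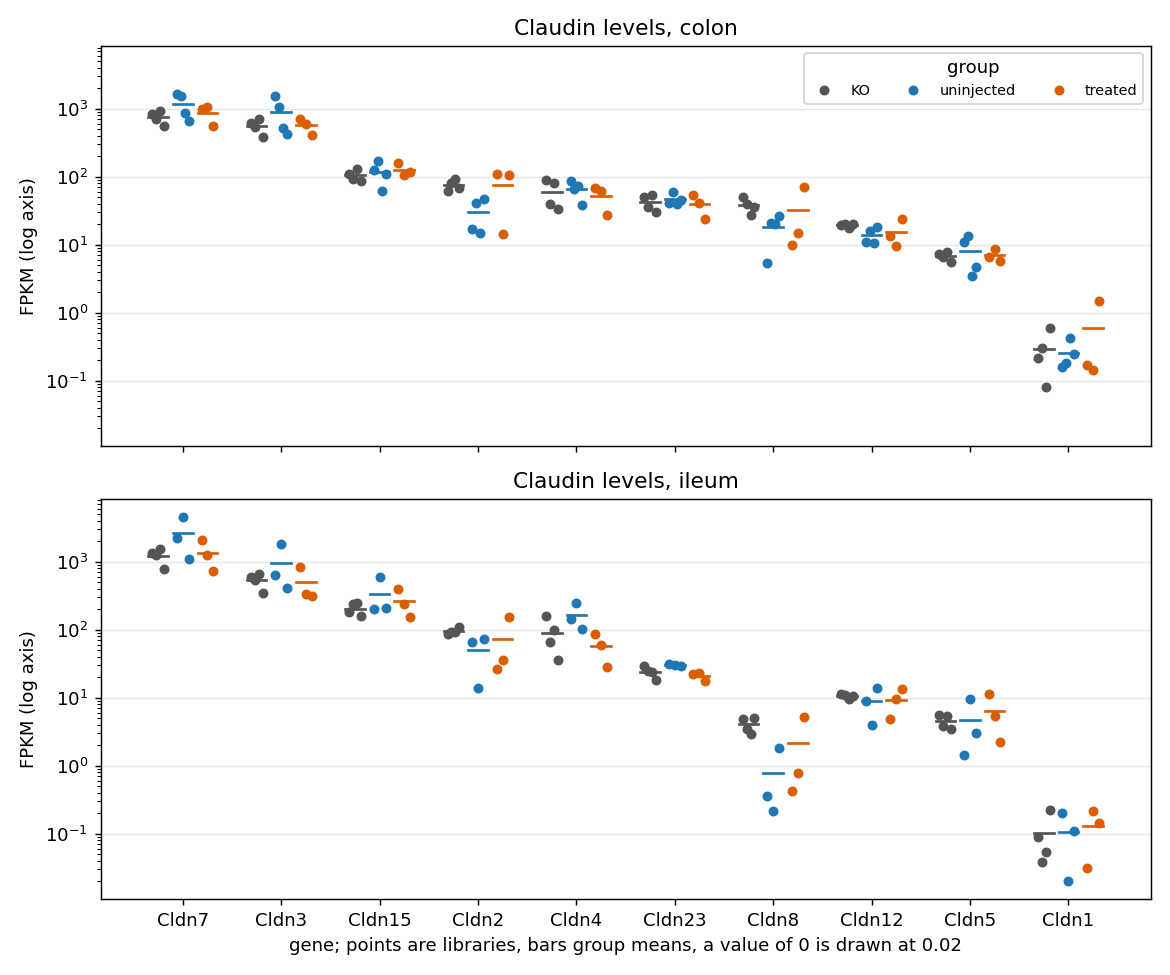
Level of each claudin in every library (FPKM, log axis) in colon (top) and ileum (bottom), with KO, uninjected and treated libraries as points and group means as bars. Cldn7 and Cldn3 sit highest in both tissues, Cldn8 is lower in ileum than in colon in every group, and Cldn1 stays at or under 1.48 FPKM. Treated libraries come from another table than the rest, whose scale differs by a few percent.

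The tables of colon and ileum were normalised separately, so levels across tissues are given side by side with no test. Cldn8 was the member that differed most between tissues: its KO mean was 38.5 FPKM in colon and 4.04 FPKM in ileum, 9.52 times lower, and the libraries did not overlap in any of the 3 groups. Cldn15, a sodium pore of the small intestine, had a KO mean of 106 FPKM in colon and 204 FPKM in ileum, and its KO and uninjected ranges did not overlap between tissues. Cldn23 ran the other way, at 42.7 FPKM in KO colon and 24.1 FPKM in KO ileum, with no overlap in any group. Cldn2 overlapped between tissues in all 3 groups. Within KO, the libraries of both tissues ranked alike for Cldn4, with number 1 highest and number 4 lowest. Cldn4 stood at 89.8, 39.4, 80.1 and 33.8 FPKM in Colon KO 1 to 4 and at 156, 65.9, 100.3 and 35.4 FPKM in Ileum KO 1 to 4. Ranks of the KO libraries also matched for Cldn3 and Cldn7, but not for the other tested members. Whether libraries of the same number come from one animal is not given in the sources used here.

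Of the 10 members, 9 passed the filter of a mean of 1 FPKM in each comparison and were tested with limma on log2(FPKM + 0.5); Cldn1 did not pass and has its own test. No member was called at an adjusted p of 0.05 (Benjamini-Hochberg over all genes) in any of the 54 member tests of the 6 comparisons, and 6 of these had an unadjusted p under 0.05. In colon, uninjected against KO, 0 of 9 members were called, beside 10 of 12437 genes (0.0804%), and 3 members had an unadjusted p under 0.05, beside 4.6% of all genes. The ranges of uninjected and KO libraries did not overlap for 2 members there, beside 2.71% of genes, and both were lower in uninjected mice, beside 1.49% of genes. In colon, treated against KO, 0 of 9 members were called, beside 37 of 12505 genes (0.296%), and no member had an unadjusted p under 0.05 or separate ranges, beside 7.31% and 8.04% of genes. In colon, treated against uninjected, 0 of 9 members and 0 of 12567 genes (0.0%) were called by limma, and none of the members but 143 of the genes (1.14%) had an unadjusted p under 0.05; no member had separate ranges, beside 1.37% of genes. The voom fit on recovered reads called 0 of 12223 genes there, with 208 at an unadjusted p under 0.05, and none of the 8 members it could be run on (all but Cldn7 and Cldn12) in any comparison. Over all genes voom called 8 of 12238 in uninjected against KO colon and 35 of 12198 in treated against KO colon, 0 of 12146 and 9 of 12078 for the same pairs in ileum.

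In ileum, uninjected against KO, 0 of 9 members were called, beside 1 of 11827 genes (0.00846%). There 2 members, Cldn2 and Cldn8, had an unadjusted p under 0.05, beside 5.42% of genes. The same 2 had separate ranges, both lower in uninjected mice, beside 8.61% in either direction and 3.35% in that one. Cldn8 passed the filter there only through the KO libraries, with means of 0.79 FPKM in uninjected and 4.04 FPKM in KO mice. Its place in these counts thus depends on its level in KO. In ileum, treated against KO, 0 of 9 members were called, beside 10 of 11974 genes (0.0835%), and no member had an unadjusted p under 0.05, beside 3.65% of genes, or separate ranges, beside 5.0%. In ileum, treated against uninjected, 0 of 9 members and 0 of 11815 genes (0.0%) were called by limma, and 0 of 12155 genes by voom. At an unadjusted p under 0.05 limma had 97 genes and voom 149. There 1 member had an unadjusted p under 0.05, beside 0.821% of genes, and 2 had separate ranges, both lower in treated mice, beside 2.7% in either direction and 1.22% in that one. The median log2 difference over the 9 members was 0.09 in colon and 0.33 in ileum for uninjected minus KO, beside -0.01 and 0.01 over all genes. It was -0.04 in colon and -0.21 in ileum for treated minus uninjected, beside -0.01 and -0.02 over all genes. The members with separate ranges were Cldn2 and Cldn8, lower in uninjected than in KO mice in both tissues, and Cldn4 and Cldn23, lower in treated than in uninjected ileum.

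**Figure D2:**
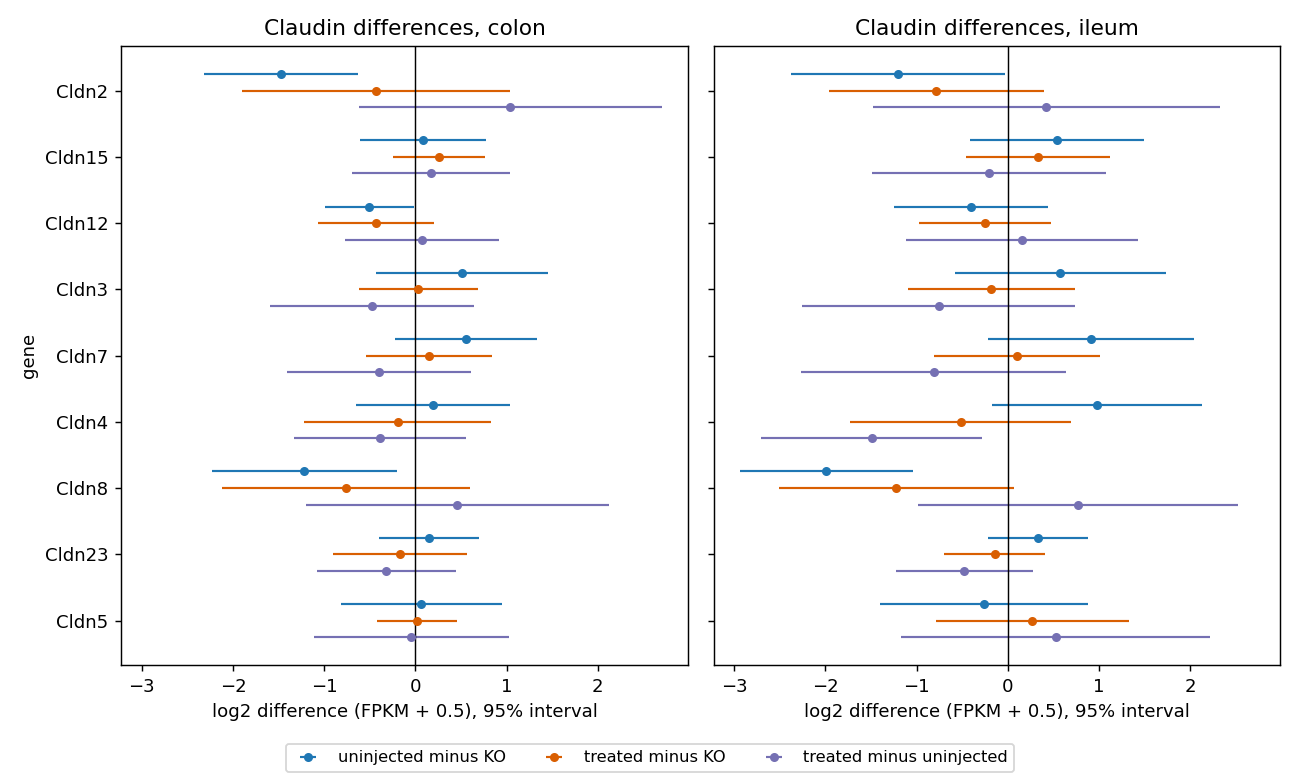
Difference in log2(FPKM + 0.5) of the 9 tested claudins in colon (left) and ileum (right) for the 3 comparisons, as limma estimates (points) with 95% intervals (lines). For uninjected minus KO the intervals of Cldn2 and Cldn8 lie below 0 in both tissues and that of Cldn12 in colon. None of these passed adjustment over all genes, and in ileum Cldn8 passed the level filter only through the KO libraries.

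Cldn2, the cation and water pore of leaky epithelia, was lower in uninjected than in KO colon, by a margin that did not pass adjustment. It stood at 61.6, 80.5, 93.0 and 67.9 FPKM in Colon KO 1 to 4 and at 17.4, 41.2, 15.1 and 46.5 FPKM in Colon uninjected 1 to 4. Every uninjected library lay below every KO library. The log2 difference was -1.47 (SE 0.376, 95% interval -2.32 to -0.63), 2.77 times lower, with an unadjusted p of 0.0032 and a limma adjusted p of 0.721. In bulk tissue, fewer cells that express a gene and less of its RNA per cell cannot be told apart. The 6 crypt and stem cell markers found summed to 56.0 to 89.1 FPKM in KO and 41.5 to 134.5 FPKM in uninjected colon, with none of them at 0. The sum of the 5 genes found of the Paneth cell list did part KO from the other colon libraries, none of these genes at 0. Such a sum does not count Paneth cells in colon, and the share of each gene in it was not read. These genes summed to 1470 to 3376 FPKM in KO, 36.8 to 913.5 FPKM in uninjected and 108.5 to 433 FPKM in treated colon. In ileum the groups overlapped, at 11270 to 16680 FPKM in KO and 1003 to 19080 FPKM in uninjected libraries. The part of either list in the differences of Cldn2 and Cldn8 was not tested. Sex and group cannot be fully told apart in these colon libraries, since all KO mice were male. Of the uninjected colon libraries, only number 4 was labelled male. With the labelled sex as a covariate, the difference in Cldn2, an X-linked gene, was -0.68 (SE 0.508). That value sets Colon uninjected 4 alone against the KO libraries, and it takes Colon uninjected 3 as female. Without Colon uninjected 3, whose Ddx3y goes against its label, and with no covariate, the difference was -1.20 (SE 0.343).

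In ileum Cldn2 also lay lower in uninjected than in KO libraries. It stood at 87.5, 91.4, 90.9 and 107.7 FPKM in Ileum KO 1 to 4 and at 65.6, 13.9 and 71.8 FPKM in Ileum uninjected 1, 3 and 4. The groups did not overlap, but 1 of the 3 uninjected libraries lay far below the others. The log2 difference was -1.21 (SE 0.521), with an unadjusted p of 0.0455 and a limma adjusted p of 0.665. Without Ileum uninjected 3, the library with the steepest GC slope, it was -0.45 (SE 0.177, adjusted p 0.999). Sex could not be added to the fit in ileum, as the uninjected columns are tied to the group only. The difference between the 2 tissues' effects was 0.26 log2 units (SE 0.677, 95% interval -1.18 to 1.71).

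After 1,25D3, Cldn2 split the libraries of each tissue. Treated colon held 109.5, 14.6 and 106.3 FPKM in libraries 1, 2 and 4, on the scale of the table shared with the uninjected mice. One library lay below every uninjected library and the others lay above all of them. The log2 difference of treated minus uninjected colon was 1.04 (SE 0.735, limma adjusted p 1.0), and without Colon treated 2 it was 1.99 (SE 0.522, adjusted p 0.95). Without Colon uninjected 3 it was 0.77 (SE 0.767). Colon treated 2 also had the fewest recovered reads. Treated ileum held 26.3, 36.1 and 154 FPKM in libraries 1, 2 and 4, libraries 1 and 2 inside the uninjected range and library 4 above it. The log2 difference there was 0.42 (SE 0.826), and -0.35 without Ileum treated 4. Against KO, treated mice differed by -0.43 (SE 0.642) in colon, and by 0.51 without Colon treated 2. In ileum they differed by -0.78 (SE 0.523). This was -1.54 (SE 0.271, limma adjusted p 0.107) without Ileum treated 4 and -0.30 (SE 0.499, adjusted p 0.976) without Ileum treated 1.

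**Figure D3:**
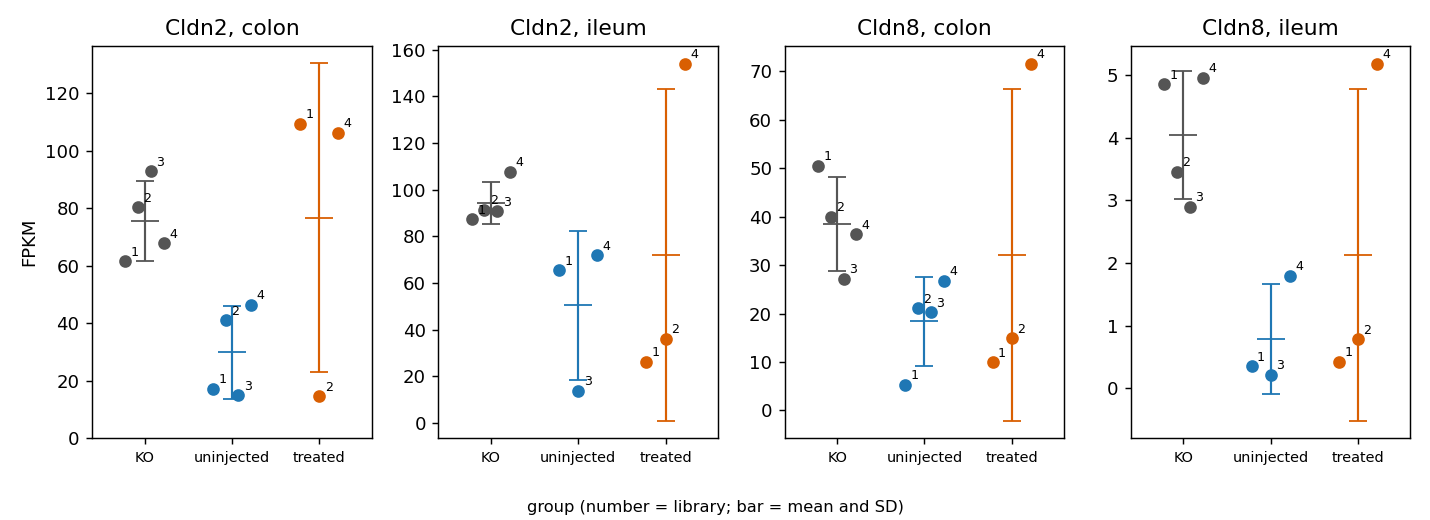
Cldn2 and Cldn8 in every library of KO, uninjected and treated mice (FPKM, linear axis), in colon and ileum, with the mean and SD of each group as bars and the library number beside each point. All uninjected libraries lie below all KO libraries in each panel. Treated libraries fall either below or above the KO range in every panel, with library 4 highest for Cldn8 in each tissue. Treated values are from another table, whose scale differs by a few percent.

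The promoter of Cldn2 is shown because VDR motifs and a CDX motif were searched in it. The transgenics are named CDX2-VDR, but the protein their transgene encodes is human VDR. It runs from 250 bases before to 50 after the gene start (RefSeq, GRCm38.p6, plus strand, X:139800558-139800857), with 3 matches in capitals: a CDX motif TTTATG, a VDR hexamer GGTTCA and a TATA box TATAAA.
Cldn2: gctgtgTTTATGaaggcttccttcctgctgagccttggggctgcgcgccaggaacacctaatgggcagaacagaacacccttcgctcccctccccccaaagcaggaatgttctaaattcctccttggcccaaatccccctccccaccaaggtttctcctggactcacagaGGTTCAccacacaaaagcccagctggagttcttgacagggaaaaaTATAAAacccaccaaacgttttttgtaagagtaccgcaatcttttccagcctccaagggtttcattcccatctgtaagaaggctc
The table of promoters held 11 windows for 8 of the 10 members, and none for Cldn8 and Cldn23. A VDR element, taken as any pair of the 4 VDR hexamers counted next, in direct repeat with 3 bases between them, on both strands, was found in 0 of the 11 windows and in 0.0396% of all 32851. The single VDR hexamer AGGTCA was found in 4 of the 11 windows (Cldn4, Cldn15 and a pair of Cldn7 windows) and in 16.3% of all. GGTTCA was found in 3 (Cldn1, Cldn2 and a window of Cldn7) and in 10.4% of all. AGTTCA was found in 0 of the 11 and in 14% of all, and GGGTCA in 1, a window of Cldn7, and in 13.7% of all. TTTATG and TATAAA were found in the Cldn2 window alone among the members', and in 11.9% and 13.6% of all windows. These matches describe the letters of the window only.

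Cldn15 and Cldn12 are the other members of the cation route. Cldn15 stood at 109.8, 93.2, 132 and 88.1 FPKM in Colon KO 1 to 4 and at 128, 171, 62.7 and 110.4 FPKM in Colon uninjected 1 to 4. The KO range lay inside the uninjected range, and the log2 difference was 0.09 (SE 0.308). In ileum it stood at 181 to 243 FPKM in KO libraries 1 to 3 and 156 FPKM in the fourth, whereas Ileum uninjected 1, 3 and 4 held 202, 595 and 205 FPKM, a log2 difference of 0.54 (SE 0.423). Ileum uninjected 3 lay far above the rest, and the others within the KO range. Treated libraries held 160, 106 and 118 FPKM in colon and 392, 240 and 155 FPKM in ileum. Cldn12 was tightly grouped in KO colon, at 19.7, 20.5, 17.8 and 20.4 FPKM, and lower on average in uninjected colon, at 11.0, 16.1, 10.8 and 18.1 FPKM. The groups overlapped in 1 library, and the log2 difference was -0.51 (SE 0.217, unadjusted p 0.0432, limma adjusted p 0.721). In ileum Cldn12 stood at 9.55 to 11.1 FPKM in KO and at 8.79, 3.92 and 13.8 FPKM in uninjected libraries, a log2 difference of -0.41 (SE 0.372). Treated minus KO gave -0.43 (SE 0.278) for Cldn12 and 0.26 (SE 0.220) for Cldn15 in colon, and -0.25 (SE 0.320) and 0.33 (SE 0.351) in ileum. For Cldn12 treated minus uninjected gave 0.07 (SE 0.371) in colon and 0.15 (SE 0.552) in ileum. The 95% intervals of these last differences, -0.77 to 0.92 and -1.12 to 1.42, leave room for changes of either sign.

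Cldn8, a barrier claudin of the distal colon, was lower in uninjected than in KO mice of both tissues, by margins that did not pass adjustment. In colon it stood at 50.5, 40.0, 27.1 and 36.4 FPKM in KO and at 5.33, 21.2, 20.3 and 26.8 FPKM in uninjected libraries. All uninjected libraries lay below all KO libraries, with 26.8 and 27.1 FPKM the nearest values of the groups. The log2 difference was -1.22 (SE 0.453, 2.33 times lower, unadjusted p 0.0237, limma adjusted p 0.721). It was -0.72 (SE 0.239) without Colon uninjected 1, -1.33 (SE 0.503) without Colon uninjected 3 and -0.48 (SE 0.681) with the labelled sex as a covariate. The last value sets Colon uninjected 4 alone against the KO libraries. In ileum Cldn8 stood at 4.86, 3.46, 2.90 and 4.96 FPKM in KO and at 0.36, 0.22 and 1.80 FPKM in uninjected libraries. These came from 462, 382, 230 and 589 recovered reads and from 40, 10 and 324 recovered reads, so the low values rest on few reads. The uninjected mean of 0.79 FPKM is under the filter of 1 FPKM, which Cldn8 passed only through the KO libraries. The log2 difference was -1.99 (SE 0.422, 3.97 times lower, 95% interval -2.94 to -1.04), with an unadjusted p of 0.0011 and a limma adjusted p of 0.665. As the added 0.5 FPKM is above some of these levels, it shrinks the fold: with 0.1 added the difference was -2.64, and by voom on the reads it was -2.61. Without Ileum uninjected 4 the limma difference was -2.51 (SE 0.313, adjusted p 0.0709). It was -1.67 (SE 0.413, adjusted p 0.999) without Ileum uninjected 3, the library with the steepest GC slope. The difference between the tissues' effects was -0.77 log2 units (SE 0.662, 95% interval -2.18 to 0.64).

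Treated libraries of Cldn8 lay wide apart. They held 9.95, 14.9 and 71.5 FPKM in colon and 0.42, 0.79 and 5.18 FPKM in ileum, library 4 being the highest of all libraries of its tissue each time. Treated minus uninjected was 0.46 (SE 0.733) in colon, -0.38 without Colon treated 4 and 0.57 (SE 0.801) without Colon uninjected 3. It was 0.77 (SE 0.762) in ileum, where Cldn8 passed the filter through Ileum treated 4: without that library its mean was 0.705 FPKM, and it was not tested. Treated minus KO was -0.76 (SE 0.591) in colon and -1.22 (SE 0.572) in ileum. Without the respective library 4 these were -1.59 (SE 0.273, limma adjusted p 0.0740) and -2.03 (SE 0.333, adjusted p 0.0932). Without the respective library 1 they were -0.21 (SE 0.575, adjusted p 0.910) and -0.70 (SE 0.550, adjusted p 0.976). With Ileum treated 4 left out, Cldn8 passed the filter only through the KO libraries, as the remaining treated values were 0.46 and 0.85 FPKM. Colon treated 4 is 1 of the 3 colon libraries rich in acinar transcripts; without all 3, treated minus KO for Cldn8 in colon was -1.57 (SE 0.316, adjusted p 0.253), and treated minus uninjected was -0.27 (SE 0.637) for Cldn8 and 0.31 (SE 0.785) for Cldn2.

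Cldn3 and Cldn7, abundant claudins along the whole lateral membrane, were higher on average in uninjected than in KO mice of both tissues, with overlapping groups. Cldn7 stood at 843, 715, 928 and 567 FPKM in Colon KO and at 1683, 1531, 855 and 670.3 FPKM in Colon uninjected libraries. Uninjected libraries 1 and 2 lay above all KO libraries and the others among them, and the log2 difference was 0.55 (SE 0.345). In ileum it stood at 788 to 1524 FPKM in KO and at 2260, 4554 and 1105 FPKM in uninjected libraries, a log2 difference of 0.91 (SE 0.501, limma adjusted p 0.665). Cldn3 differed by 0.51 (SE 0.419) in colon and 0.58 (SE 0.512) in ileum, and its highest levels, 1540 FPKM in Colon uninjected 1 and 1824 FPKM in Ileum uninjected 3, fell in the libraries of each tissue with the steepest GC slope. The same libraries also had the highest sum of the 8 epithelial markers in their tissue, 14310 FPKM in colon and 20810 FPKM in ileum. KO libraries held 7519 to 10280 FPKM in colon and 7446 to 10590 FPKM in ileum. The part of GC slope or of epithelial content in these levels was not tested. Treated minus KO was between -0.18 and 0.15 for both genes and tissues. Treated minus uninjected was -0.48 (SE 0.492) and -0.40 (SE 0.444) in colon and -0.76 (SE 0.650) and -0.81 (SE 0.631) in ileum, for Cldn3 and Cldn7 in this order. Single libraries moved these values: without Ileum uninjected 3 they were -0.15 (SE 0.539) and -0.31 (SE 0.584) in ileum, without Colon uninjected 1 they were -0.15 and -0.20 in colon, and without Colon treated 4 they were -0.26 (SE 0.579) and -0.10 (SE 0.502) there.

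Cldn4, whose coding stretch is nearest to that of Cldn3, gave the only unadjusted p under 0.05 of the treated against uninjected comparisons. In the ileum table of these groups it stood at 141, 235 and 99.5 FPKM in uninjected and at 87.3, 59.3 and 27.8 FPKM in treated libraries. Every treated library lay below every uninjected one, and the log2 difference was -1.49 (SE 0.527, 2.82 times lower, 95% interval -2.71 to -0.28). The unadjusted p was 0.0217 and the limma adjusted p was 1.0. KO ileum overlapped both groups in the tables it shares with them: uninjected minus KO was 0.97 (SE 0.511) and treated minus KO was -0.52 (SE 0.538). In the colon table Cldn4 stood at 88.6, 66.0, 73.8 and 39.2 FPKM in uninjected and at 69.4, 62.0 and 27.2 FPKM in treated libraries, a log2 difference of -0.39 (SE 0.418) with overlapping groups. The treated minus uninjected differences of Cldn4 in the tissues differed by -1.11 log2 units (SE 0.692, limma adjusted p 1.0). Of the 3 uninjected ileum samples 2 were labelled female, and all treated mice were male. Treatment and sex cannot be fully told apart in these differences.

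Cldn23, a lesser known claudin of the gut surface, stood close together in uninjected ileum, at 29.9, 29.4 and 28.3 FPKM in the table with treated libraries. Treated ileum lay below this, at 22.3, 22.8 and 17.8 FPKM. The log2 difference was -0.48 (SE 0.324), with an unadjusted p of 0.179 and a limma adjusted p of 1.0. In its table with uninjected libraries, KO ileum reached from 18.4 to 29.2 FPKM and overlapped them, and it overlapped treated libraries in the table of that pair. In colon the groups of Cldn23 overlapped in every table, at 30.4 to 53.6 FPKM in KO, 40.3 to 59.7 FPKM in uninjected and 23.7 to 53.3 FPKM in treated libraries.

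Cldn5 was low in all libraries, from 3.50 to 13.5 FPKM in colon and from 1.42 to 11.4 FPKM in ileum. Its largest log2 difference, 0.52 (SE 0.736) for treated minus uninjected ileum, was smaller than its standard error. Colon uninjected 3 had the lowest Cldn5 of the colon libraries, 3.50 FPKM from 39 recovered reads, and the lowest sum of the 9 endothelial markers, 23.4 FPKM, against 33.6 to 55.5 FPKM in the other colon libraries; its part in the level of Cldn5 was not tested. Cldn1 had between 5 and 121 recovered reads in colon and between 0 and 37 in ileum. Its means were 0.30 ± 0.22 FPKM in KO, 0.26 ± 0.12 FPKM in uninjected and 0.60 ± 0.76 FPKM in treated colon, where 1 library held 1.48 FPKM. The exact two-sided permutation test gave p between 0.686 and 1.0 over the 6 comparisons; 3 against 3 libraries cannot go below 0.10.

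In the libraries with steep GC slopes the members parted by their own GC content. The 6 tested members with a transcript GC of at least 54% (Cldn3 at 62.8%, Cldn5, Cldn7, Cldn4, Cldn23 and Cldn15) all lay above their tissue mean in Ileum uninjected 3, by a median of 1.42 log2 units, and the 3 under 50% (Cldn2 at 48.8%, Cldn12 at 44.4% and Cldn8 at 40.6%) all lay below it, by a median of -1.67. Colon uninjected 1 had 5 of the 6 above, at a median of 0.64, and all 3 below, at a median of -1.43. In Colon treated 4 and Ileum treated 4, with slopes of -0.56 and -0.59, all 3 GC-poor members lay above the mean, at medians of 1.15 and 1.32. They also lay above it in every KO library, as in Colon KO 3 with a slope of 0.02 (median 0.19). In Colon uninjected 3 and Colon treated 2, with slopes of -0.14 and 0.10, all 3 lay below it. Libraries with steep slopes are spread unevenly over the groups. In colon, slopes were -0.30 to 0.02 in KO and -0.33 to 0.87 in uninjected libraries. In ileum they were -0.39 to -0.15 in KO and -0.26 to 1.05 in uninjected libraries. After a correction that took out the dependence of each library on GC and length, uninjected minus KO was -1.39 (SE 0.338) for Cldn2 and -0.93 (SE 0.320) for Cldn8 in colon, and -1.13 (SE 0.460) and -1.49 (SE 0.345) in ileum. Under the same setting the differences of Cldn3 became 0.02 (SE 0.198) in colon and -0.07 (SE 0.172) in ileum, and those of Cldn7 0.23 (SE 0.161) and 0.57 (SE 0.270). Cldn4 in treated minus uninjected ileum was then -1.35 (SE 0.253, limma adjusted p 1.0).

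**Figure D4:**
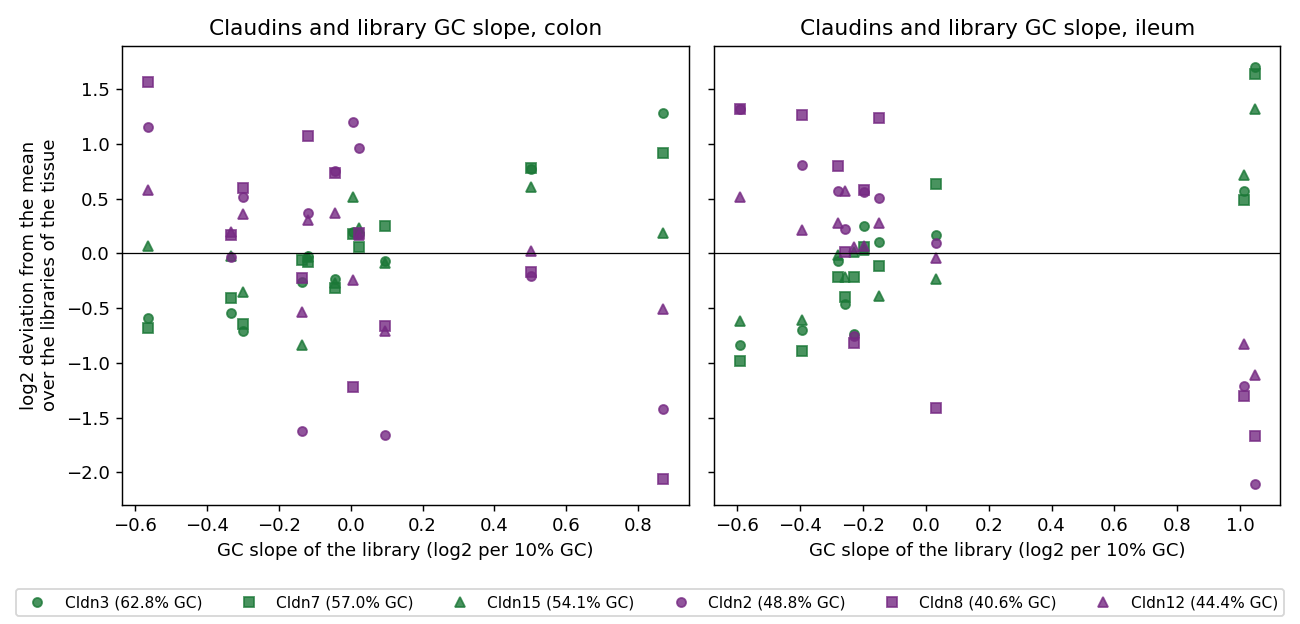
Log2 deviation of 6 claudins from their mean over the libraries of a tissue, against each library's slope on GC content (log2 per 10% GC), in colon (left) and ileum (right), with GC-rich members in green and GC-poor members in purple. At the right end of the ileum panel, slopes of 1.01 and 1.05, the GC-rich members lie above and the GC-poor members below 0; at the left end the order is turned.

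Across tissues, uninjected minus KO, treated minus KO and treated minus uninjected effects were set against each other in a fit with a tissue term. It called 0 of the 9 members in each, beside 1 of 12364 genes (0.00809%), 1 of 12448 (0.00803%) and 0 of 12437 (0.0%). The fit takes all libraries as independent, and any sharing of animals is not in the fit. KO libraries of the same number rank alike in colon and ileum for Cldn3, Cldn4 and Cldn7. They do not for Cldn2, Cldn5, Cldn8, Cldn12, Cldn15 and Cldn23, and genes outside the members were not read for this. Same-numbered KO libraries share their labelled ages, but numbers 2 to 4 are all labelled 11 weeks. The difference of effects (ileum minus colon) ran over the members from -0.77 for Cldn8 to 0.78 for Cldn4 in uninjected minus KO.

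Other claudins were low. Of 17 listed, 13 were in the tables, and 4 reached 1 FPKM in a colon library: Cldn14 (at most 4.42 FPKM), Cldn10 (2.59 FPKM), Cldn22 (1.09 FPKM) and Cldn19 (1.03 FPKM). In ileum only Cldn10 did, at 2.04 FPKM. Cldn10 and Cldn19 reached their colon maximum in Colon uninjected 3, the library richest in acinar transcripts.

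The other junction genes did not pass the test either. Of 10 tested strand and tricellular proteins, 6 were lower and 4 higher in uninjected than in KO colon and none was called, with a median log2 difference of -0.23, beside -0.01 over all genes. Ocln, the gene of occludin, differed there by -0.92 (SE 0.420, limma adjusted p 0.721). Of 16 scaffold genes 12 were lower and 4 higher, none called, with Cgn (cingulin, which ties strands to the cytoskeleton) at -0.62 (SE 0.244, unadjusted p 0.031). In ileum, 6 strand genes were lower and 4 higher, and 8 scaffold genes lay on each side of 0. Among the strand and scaffold genes named by the smallest p there, Crb3 stood at 0.87 (SE 0.340) and Pard6b at 0.81 (SE 0.255), both polarity genes, with unadjusted p of 0.0309 and 0.0112. In treated minus uninjected mice no strand, scaffold, regulator or adhesion gene had an unadjusted p under 0.05 in either tissue. No gene of these 4 lists was called in any of the 6 comparisons.

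Genes of the transcellular calcium route were called in comparisons with KO mice alone. In uninjected against KO colon, 2 of 4 tested genes of that route were called, both higher: Trpv6, the apical channel, at 205 ± 132 against 0.39 ± 0.29 FPKM (log2 7.66, SE 0.472, limma adjusted p 0.00038), and S100g, the binding protein, at log2 6.52 (SE 0.712, adjusted p 0.0129). In treated against KO colon 3 of 4 were called, the third being the pump gene Atp2b1 at log2 1.33 (SE 0.183, adjusted p 0.0298). In uninjected against KO ileum S100g differed by log2 6.43 (SE 0.735), with an adjusted p of 0.0577. In treated against KO ileum S100g alone of 3 was called, at log2 5.06 (SE 0.409, adjusted p 0.0021). In uninjected against KO ileum 0 of 3 were called, 2 of them lower, and treated minus uninjected called 0 of 4 by limma in each tissue, with 0 at an unadjusted p under 0.05. Trpv6 passed the filter in colon through the transgenic libraries, and these genes were chosen with their response known. Among 3 tested transporters of sodium, glucose and phosphate, which share the gradients of the paracellular route, the phosphate carrier gene Slc34a2 was called in colon, at 18.4 ± 2.25 in uninjected against 4.04 ± 0.76 FPKM in KO mice (log2 2.06, SE 0.202, adjusted p 0.0083).

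The genes most alike in pattern were taken as those with the highest Pearson correlation of log2(FPKM + 0.5) over KO and uninjected libraries, 8 in colon and 7 in ileum, which share group, depth and GC slope. For Cldn2 these were Fubp3 (r = 0.987), Ccdc19 (0.983) and Idh3a (0.978) in colon, and Slc35a1 (0.997), Prpf39 (0.996) and Zhx1 (0.996) in ileum. For Cldn8 they were Tada2a (0.977), Cyp39a1 (0.970) and Lilrb4 (0.964) in colon, and Fam199x (0.988), Gm13251 (0.984) and Dcun1d4 (0.980) in ileum. For Cldn4 in ileum Atf3 was first, at 0.969.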

How the data were processed

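The 6 deposited tables hold FPKM that the authors computed, each for 2 groups of 1 tissue. Mapping used CLC Genomics Workbench (labels' protocols). Per the submitters' processing notes, which give no roles, kallisto 0.45.0, mm9, DESeq2 and DESeq 1.14.0 were also involved. Libraries were poly(A)-selected. A library that stands in 2 tables differs between them by 1 constant factor, so tests and comparisons of groups stay within a table. Treated and uninjected ileum columns show a group but no single sample. Where the labels do not say that samples come from separate animals, p-values measure the spread between samples, which may be technical.

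Differences were fitted with limma 3.58.1 (R 4.3.3, intensity trend, two-sided) on log2(FPKM + 0.5) over genes whose mean in the table reached 1 FPKM, adjusted by Benjamini-Hochberg over all genes (threshold 0.05), so differences of low genes are understated. Whole reads were recovered from the steps of low values for 76.9% of colon and 77.2% of ileum genes above 0 (tolerance 0.01), and for 8 of the 10 claudins (not Cldn7 and Cldn12). These reads cover resolved genes, not whole libraries. The fits were run on simulated data with known changes, in which each gene varied independently. Those data held no GC slopes, acinar content or sex differences shared across genes, so they do not check the fits under these. Members and lists were chosen with earlier results of these data known. All members are named in each comparison. Of each junction list the called genes, or otherwise the 2 of smallest p, could be named, and 3 genes most alike per claudin. The GC and length correction, voom and the set without 3 acinar-rich libraries were added after seeing the data.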

Additional observations from a re-analysis of the deposited data

How the results depend on the processing

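No claudin was called under any of the 97 other settings of the 6 comparisons or the 57 of the tissue differences; the lowest adjusted p was 0.0588, for Cldn2 in uninjected minus KO colon without Colon uninjected 4, and it was 0.721 as reported. Of 483 single log2 differences under other settings 26 lay on the other side of 0, and of 377 with a library left out 45 did; the cause was not tested. With few libraries a group and few reads for Cldn1, and for Cldn8 in ileum, differences within these intervals were not detectable.

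With the GC and length trend removed, values changed side in uninjected minus KO colon for Cldn4 (-0.056), Cldn5 (-0.34), Cldn15 (-0.072) and Cldn23 (-0.031), in treated minus KO colon for Cldn3 (-0.13) and Cldn5 (-0.076), and in treated minus uninjected colon for Cldn5 (0.27) and Cldn12 (-0.17). In ileum they did for Cldn3 in uninjected minus KO (-0.073), and for Cldn5 (-0.019) and Cldn7 (-0.094) in treated minus KO. The labelled sex as a covariate sets Colon uninjected 4 alone against the KO libraries. With it, uninjected minus KO colon gave Cldn3 -0.35, Cldn4 -0.51, Cldn5 -0.50 and Cldn7 -0.16. Quantile normalization gave Cldn15 -0.10 there and 0.031 in treated minus uninjected ileum. Without the acinar-rich libraries Colon KO 2 and Colon uninjected 3, Cldn4 was -0.041 in uninjected minus KO colon, and Cldn12 -0.037 and Cldn15 -0.10 in treated minus uninjected colon. Without Colon treated 4 as well, treated minus KO colon gave Cldn4 0.062 and Cldn23 0.081, and treated minus uninjected colon gave Cldn4 0.098, Cldn8 -0.27, Cldn12 -0.39 and Cldn15 -0.056.

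Leaving out 1 library at a time, these ranges crossed 0. In uninjected minus KO colon they were -0.044 to 0.43 for Cldn4, -0.23 to 0.37 for Cldn5 and -0.12 to 0.36 for Cldn15. In treated minus KO colon they were -0.92 to 0.51 for Cldn2, -0.14 to 0.25 for Cldn3, -0.45 to 0.23 for Cldn4, -0.13 to 0.14 for Cldn5, -0.021 to 0.46 for Cldn7 and -0.43 to 0.16 for Cldn23. In treated minus uninjected colon they were -0.64 to 0.031 for Cldn4, -0.36 to 0.25 for Cldn5, -0.38 to 1.01 for Cldn8, -0.28 to 0.37 for Cldn12, -0.10 to 0.38 for Cldn15 and -0.58 to 0.0015 for Cldn23. In uninjected minus KO ileum they were -0.042 to 1.04 for Cldn3, -0.92 to 0.28 for Cldn5 and -0.79 to 0.054 for Cldn12. In treated minus KO ileum they were -0.64 to 0.077 for Cldn3, -0.27 to 0.82 for Cldn5, -0.27 to 0.48 for Cldn7, -0.55 to 0.11 for Cldn12 and -0.020 to 0.67 for Cldn15. In treated minus uninjected ileum they were -0.35 to 0.92 for Cldn2, -0.022 to 1.17 for Cldn5, -0.31 to 0.54 for Cldn12 and -0.55 to 0.30 for Cldn15.

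With the replicate number as a block, possible for uninjected against KO colon, 0 claudins were called; Cldn2 was -1.47 (limma adjusted p 0.559) and Cldn8 -1.22 (adjusted p 0.559). The numbers were not taken as pairs, since same-numbered libraries correlated at 0.0037, -0.0027, -0.0064 and 0.671 in their deviations from the group means. For the other comparisons no paired fit could be made, because they use columns that carry no sample number of the labels.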
